A study of Mus musculus with 2 samples.

Results

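The genes described here are the cytosolic ribosomal protein genes of mouse colorectal tumours, read by single-cell RNA sequencing. They were taken by symbol, as every row whose name is Rpl or Rps with a number and an optional ending, together with Rpsa, Rplp0, Rplp1 and Rplp2. The rule found 83 of the 32285 genes listed. Of these, 48 encode proteins of the large subunit, 3 encode its acidic stalk (Rplp0, Rplp1 and Rplp2) and 32 encode proteins of the small subunit, and they lie on 19 chromosomes.

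The tumours had been induced with azoxymethane and dextran sulfate sodium (AOM/DSS), a carcinogen and an agent that injures the colon lining. 1 library came from pooled tumours of mice with a global knockout of Stk25, a serine/threonine kinase, and 1 library from pooled tumours of wild-type (WT) mice. The sources used here do not give mouse age, strain or the number of pooled animals. The series record adds a flow sort on an mCherry signal, which the study's methods leave undescribed. Tumours were dissociated with trypsin. Epithelial, stromal and immune cells were all found among the cells read.

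A ribosome carries 1 copy of nearly every ribosomal protein, and its many genes are therefore expressed together at levels that exceed those of most other mRNAs. Their mRNAs begin with a run of pyrimidines, the terminal oligopyrimidine (TOP) tract, through which mTORC1 and the binding protein Larp1 set their translation. Growing and dividing cells of the intestinal crypt are known for high ribosome production, and differentiated cells at the surface for less.

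The library labelled STK25 knockout kept 13883 cells with a median of 2091 unique molecular identifiers (UMIs, each counting 1 captured mRNA molecule whatever its length), and the library labelled WT kept 12270 cells with a median of 1383. The libraries shared 230 cell barcodes. Stk25 itself stood at 127 counts per 1000000 UMIs (CPM) in the library labelled STK25 knockout and at 118 CPM in that labelled WT, so its level was not lower under the knockout label. Which part of the gene was deleted was not stated in those sources, so 3′ tags cannot check the label. With 1 library per label no test between them was possible, and every interval below is an exact 95% interval that covers counting error only. A difference between the labels cannot be told apart from a difference between the pools of mice, the dissociations or the libraries.

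The start sites are shown first, because the pyrimidine run is the feature these genes are known to share and because the paralogs described below differ there. Each line gives the 15 bases before and the 15 bases from the RefSeq start (GRCm38.p6), 5′ to 3′, with the longest pyrimidine run near that start in capitals. Runs were counted from a base no more than 5 before or after the start, so one that reaches further upstream, as that of Rps9 does, is marked from 5 bases before it only. Shown are a pair of abundant members (Rps2 and Rps24), the member most concentrated in neutrophils (Rps9), both small-subunit and large-subunit paralog pairs, and the members with the highest and the lowest difference between libraries in epithelial cells (Rps18 and Rpl10).
Rps2: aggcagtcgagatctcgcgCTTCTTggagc
Rps24: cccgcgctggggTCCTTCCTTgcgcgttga
Rps9: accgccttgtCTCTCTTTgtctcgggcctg
Rps27: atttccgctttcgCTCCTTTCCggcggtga
Rps27l: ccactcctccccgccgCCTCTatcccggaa
Rpl22: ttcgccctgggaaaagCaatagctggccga
Rpl22l1: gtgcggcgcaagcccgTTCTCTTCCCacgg
Rps18: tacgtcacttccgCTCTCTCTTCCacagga
Rpl10: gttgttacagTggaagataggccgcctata

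RefSeq starts were found for 63 of the 83 members, the first listed start being used where a gene had several. A pyrimidine run counted in this way had at least 7 bases in 22 members (34.9%), against 8.69% of the 26962 other genes. In 4 of the 22, Rps9 among them, the run reached further upstream, and without such runs there were 18 members (28.6%), against 7.47% of other genes. The start was a C followed by 4 pyrimidines in 12 members (19.1%), against 2.45% of other genes. Rps18 had a run of 11 bases and Rpl10 a run of 1 base, and the paralogs Rps27 and Rps27l had runs of 9 and 5. Among members with a start, the difference between libraries had close medians with and without a run counted in this way. The median log2 ratio of CPM, STK25 knockout over WT, in epithelial cells was 0.37 for 22 members with a run of at least 7. It was 0.39 for 38 members without one, and in fibroblasts the medians were 0.06 and 0.05. Members counted without a run can have pyrimidines that reach further upstream, as Rpl4 does. These medians therefore cannot decide whether the tract went with the ratio. Over 300 bases around the start and on both strands, CCGGAAG, the core of the site bound by ETS-family factors, was present in 39.7% of members and 9.05% of other genes. AAGATGG, the core of the YY1 site, was present in 14.3% against 6.46%. TATAAA was present in 9.52% of members and 14.2% of other genes, and CACGTG, the E-box bound by Myc, in 7.94% and 7.24%. These are matches of letters, and a gene without one may still carry the site outside this window.

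Of the 83 members, 81 had at least 50 UMIs. Rpl10l, a retrogene known for its role in male meiosis, had 0 UMIs. Rpl39l, the testis-enriched paralog of Rpl39, had 7 UMIs in the library labelled STK25 knockout and 4 in that labelled WT. Rpl3l, a paralog of Rpl3 known from striated muscle, had 56 and 15 UMIs, of which neutrophils held 28 and 4. The ubiquitous partners Rpl3 and Rpl39 stood at 1257 CPM and 1203 CPM under the knockout label, and at 991.4 CPM and 1022 CPM under the WT label. Rpl7l1, a paralog of Rpl7 that stays with ribosome precursors, stood at 49.2 CPM in the library labelled STK25 knockout and at 43.2 CPM in that labelled WT, far below Rpl7 at 1103 CPM and 985.8 CPM. Rps4x, encoded on the X chromosome, stood at 2212 CPM and 1826 CPM. Among the 10 members with the most UMIs were Rpl13, Rps2, Rps24, Rplp0, Rps20, Rps9, Rpl19 and Rpl32. The 10 together held 23.9% of all member UMIs under the knockout label and 23.5% under the WT label. Rpl13 was the most abundant, at 3465 CPM in the library labelled STK25 knockout and 2642 CPM in that labelled WT.

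Ribosomal protein genes took 11.8% of UMIs in the library labelled STK25 knockout and 9.64% in the library labelled WT, a log2 ratio of 0.29 (0.29 to 0.29). The difference varied in size and direction between classes. B cells had shares of 12.2% and 8.03% in the libraries labelled STK25 knockout and WT, and macrophages or monocytes had 8.53% and 5.42%. Epithelial cells, which the study treats as the cancer cells, had 12.8% and 9.78%, a log2 ratio of 0.39 (0.39 to 0.39). T or NK cells had 12.9% and 9.87%, and goblet or secretory cells had 13.9% and 10.6%. Endothelial cells had 9.11% and 7.99%, and fibroblasts had 9.68% and 9.24%. No cluster was named for pericytes or smooth muscle, whose cells may lie within the fibroblast or endothelial clusters. The fibroblast log2 ratio was 0.07 (0.06 to 0.08). Dendritic cells ran the other way, at 14.3% in the library labelled STK25 knockout against 16.1% in that labelled WT. Neutrophils had 6.11% and 6.23%, and were the lowest class under the knockout label only. Plasma cells had 6.72% and 3.79%, from 34 and 25 cells.

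**Figure D1:**
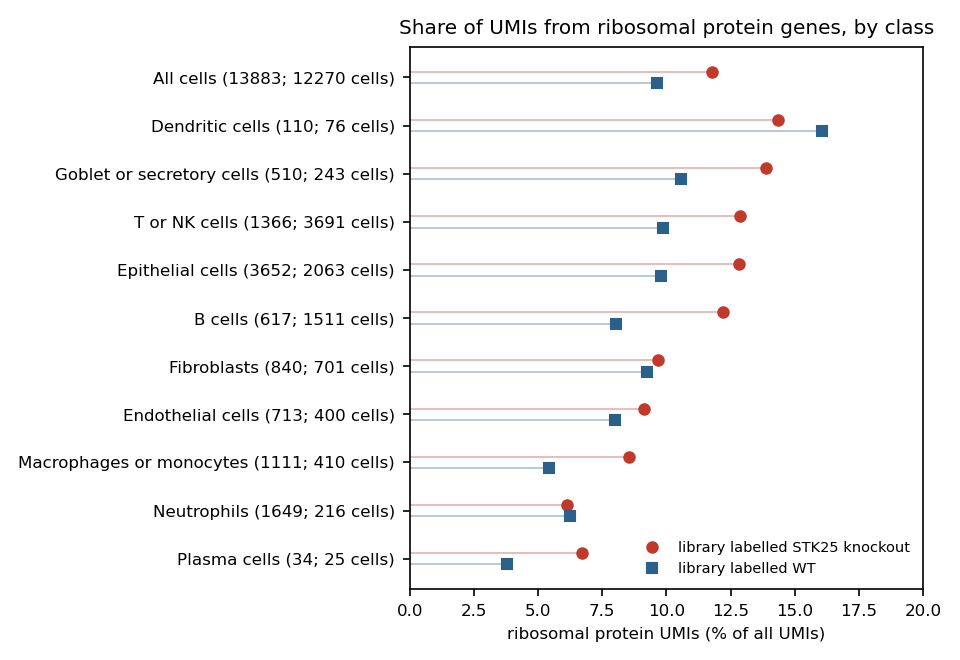
Share of UMIs from the 83 ribosomal protein genes (x axis, percent of all UMIs) in all cells and in 10 classes, with red circles for the library labelled STK25 knockout and blue squares for that labelled WT, and the number of cells in each in brackets. Red lies right of blue in 8 of 10 classes, and left of it in dendritic cells and neutrophils.

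In all, the share was higher under the knockout label in 8 of 10 classes and in 14 of 19 clusters, lower in 4 clusters, and not distinguishable by counting error in 1. Clusters 0, 4 and 15 stayed unnamed and outside the classes. In clusters 4 and 15 fewer than 3 markers of any class were met. Cluster 0, of 2090 cells in the library labelled STK25 knockout and 1414 in that labelled WT, matched the epithelial set best, with 7 markers. It was left unnamed because its leading genes held a marker of tuft cells, Dclk1, and none of the epithelial set. The epithelial values therefore leave out cluster 0, whose log2 ratio was -0.130. Cluster 0, led by keratin genes such as Krt16 and by hemoglobin genes, had 10.2% in the library labelled STK25 knockout and 11.1% in that labelled WT. Its hemoglobin UMIs came almost wholly from 1 library, at 0.312% of UMIs under the knockout label and 5.55e-05% under the WT label. The ribosomal share was 11.1% and 10.7% in cluster 4, and 9.27% and 9.48% in cluster 15. Several class values mix cell groups in unequal parts. Neutrophils split into cluster 11, led by S100a9, Retnlg and Ngp, and cluster 12, led by Ankrd33b, Hdc and Acod1 beside immunoglobulin genes. Both were higher under the knockout label, at 5.39% against 4.86% in cluster 11 and at 7.92% against 6.60% in cluster 12. Cluster 11 held 54.8% of neutrophils in the library labelled STK25 knockout and 15.7% in that labelled WT, and the class as a whole was lower under the knockout label. T or NK cells lay 94.4% in cluster 2 under the knockout label and 68.6% in cluster 1 under the WT label. Within cluster 2 the shares were 13.0% and 10.7%, and within cluster 1 10.4% and 9.33%, in the libraries labelled STK25 knockout and WT.

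Within the epithelium the share differed more between clusters than between libraries. Cluster 10, led by Gpx2 and the mitosis genes Birc5, Cdc20 and Ube2c, had the highest share of any cluster, at 18.1% in the library labelled STK25 knockout and 16.6% in that labelled WT. Cluster 8, led by Mdga2 and the Wnt pathway genes Wif1 and Nkd1, had 12.7% and 11.3%. Cluster 5, with Saa1, Ly6m, Psca and Krt20 among its leading genes, had 7.15% and 5.06%. Cluster 9, led by Htr4, Esrrg and the chloride channel gene Cftr, had 4.51% and 4.87%, and was the epithelial cluster that was lower under the knockout label. The log2 ratios were 0.50 in cluster 5, 0.17 in cluster 8, -0.11 in cluster 9 and 0.12 in cluster 10, with an equally weighted mean of 0.17. Cluster 10 held 41.1% of epithelial UMIs in the library labelled STK25 knockout and 25.9% in that labelled WT, and without it the epithelial log2 ratio was 0.30.

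Clustering all cells at a finer resolution of 2 gave 8 clusters with epithelial markers, of 3867 cells in the library labelled STK25 knockout and 3089 in that labelled WT. One of them, led by Krt16, had only 4.71% of its cells in the epithelial class above and shared leading genes with the unnamed cluster 0. The other 7 lay mostly within the class and had log2 ratios from 0.05 to 0.51 with a median of 0.12. The Krt16-led cluster, of 133 and 1013 cells, had a ratio of 0.01 (-0.01 to 0.03). The cluster led by Htr4, Esrrg and Cftr had 4.79% and 4.54% at this resolution, so the lower share of cluster 9 under the knockout label was not seen here. Shares differed widely between these clusters. A cluster led by the enterocyte genes Fabp2 and Car1 had 16.8% in the library labelled STK25 knockout and 15.4% in that labelled WT, and one with Gpx2 and the stem cell gene Ascl2 among its leading genes had 17.8% and 16.5%. A cluster led by Mdga2 had 3.96% and 3.34%, and one led by the surface genes Car4, Tgm3 and Aqp8 had 4.46% and 3.13%. Goblet cells split likewise. Those led by Spink4, Reg4 and Agr2 had 16.5% and 15.3%, while those led by Ptprn2, Kcnma1 and Fcgbp had 4.55% and 2.93%, although Muc2, the main intestinal mucin, was among the 10 leading genes of both. The median share per goblet cell was 7.29% under the knockout label and 8.30% under the WT label, the opposite order to the summed UMIs, and the Spink4-led cells had a median depth of 12208 UMIs in the library labelled STK25 knockout against 1361 in that labelled WT.

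**Figure D2:**
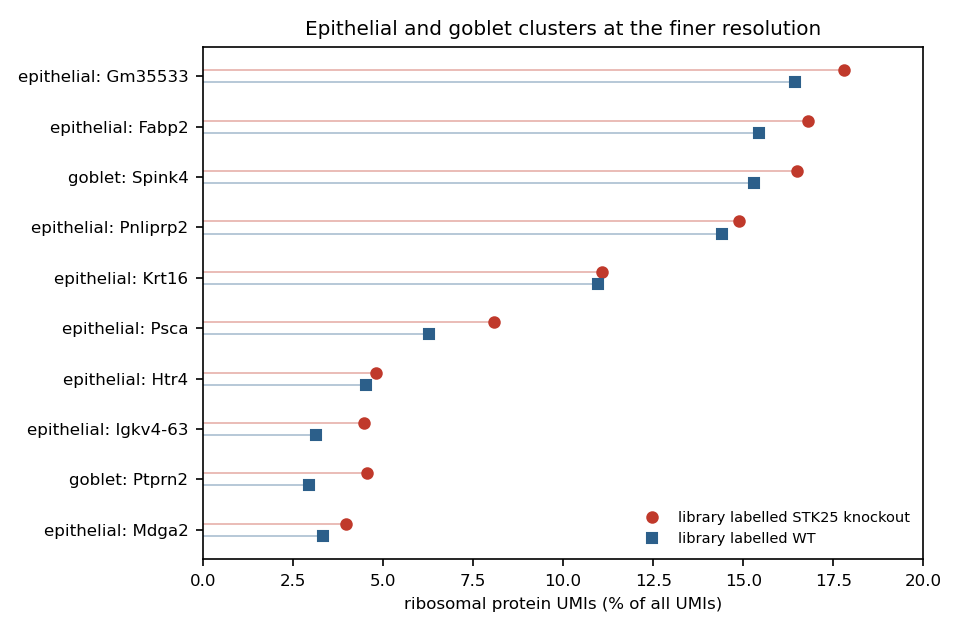
Share of UMIs from ribosomal protein genes (x axis, percent of all UMIs) in the 8 clusters with epithelial markers and the goblet clusters found at a resolution of 2, each named by its first leading gene, with red circles for the library labelled STK25 knockout and blue squares for that labelled WT. Clusters lie in a high group reaching 17.8%, a low group under 5%, and between them those led by Psca and by Krt16. The Krt16-led one lies mostly outside the epithelial class. On this axis the libraries lie close within most clusters, but log2 ratios range from 0.01 in the Krt16-led cluster to 0.63 in the Ptprn2-led goblet cluster.

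The shares of Malat1 and of long genes were lower where the ribosomal share was higher. Malat1, a long RNA retained in the nucleus, took 0.828% of UMIs in the library labelled STK25 knockout and 1.24% in that labelled WT. Genes spanning at least 100 kb, Malat1 not being one, took 12.4% and 18.3%. Mitochondrial UMIs took 2.97% and 3.56%. The low-share epithelial cluster led by Mdga2 had 2.42% and 2.30% Malat1 with 27.99% and 29.98% from long genes, while the high-share cluster led by Fabp2 had 0.265% and 0.412% Malat1 with 7.49% and 10.4%. Over the 35 pairs of cluster and library with at least 50 cells, the ribosomal share had a Pearson correlation of -0.74 with the Malat1 share (Spearman -0.70) and of -0.60 with the long-gene share (Spearman -0.56). These points share 2 libraries, and each pair of shares has 1 common denominator, so the correlations are a description. What part the Malat1 and long-gene shares had in the difference between libraries was not tested.

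**Figure D3:**
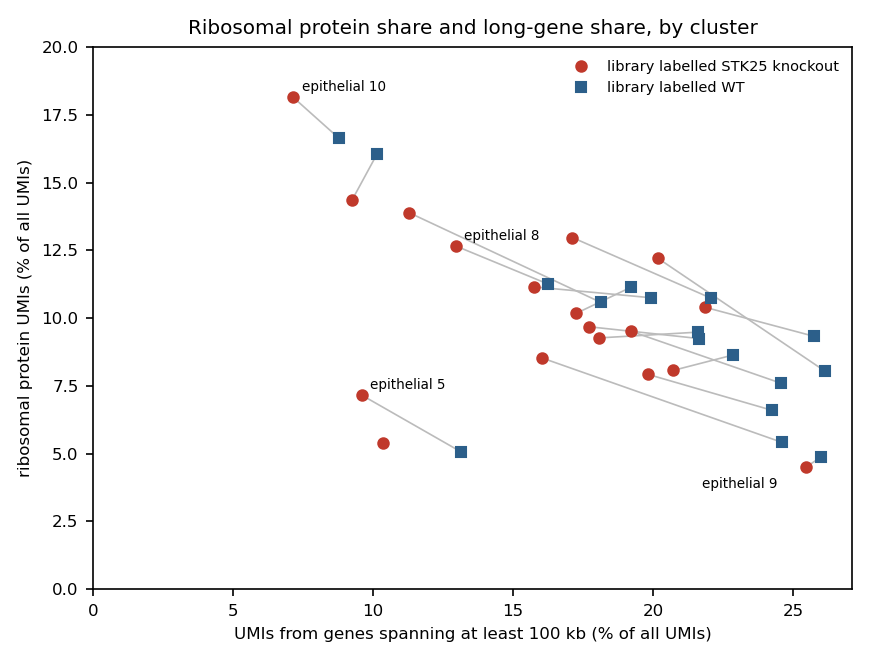
Ribosomal protein share (y axis, percent of all UMIs) against the share from genes spanning at least 100 kb (x axis, percent of all UMIs) for each cluster with at least 50 cells, with red circles for the library labelled STK25 knockout, blue squares for that labelled WT and grey lines joining the libraries of 1 cluster. Most lines run from red at upper left to blue at lower right, and epithelial cluster 10 lies at the top left at 18.1% and 16.6%.

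Against a total of short genes the difference changed direction. When only protein-coding genes spanning under 10 kb made up the total, which kept 79 members, ribosomal protein genes were 25.7% of UMIs in the library labelled STK25 knockout and 26.5% in that labelled WT, a log2 ratio of -0.04. In epithelial cells the values were 26.7% and 24.1%, a log2 ratio of 0.15, and in fibroblasts 25.9% and 28.8%, a log2 ratio of -0.15. Cluster 5 kept the highest such value of the epithelial clusters, 0.31, whereas clusters 8 and 10 came to 0.00 and 0.02 and cluster 9 to -0.18. In macrophages or monocytes the log2 ratio was 0.05 against short coding genes and 0.655 against all UMIs, and in B cells it was 0.15 and 0.605. In neutrophils it was -0.67 and -0.026, while within their clusters 11 and 12 it was -0.14 and -0.07 against short coding genes. This total was chosen after the values were seen.

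The epithelial share also differed with the number of UMIs per cell. Epithelial cells of 2000 to 5000 UMIs had shares of 4.73% in the library labelled STK25 knockout and 4.35% in that labelled WT, and those of at least 10000 UMIs had 14.55% and 11.95%. Cells of 5000 to 10000 UMIs differed most, at 8.76% and 4.69%, a log2 ratio of 0.90. In that depth range the log2 ratio was 0.70 in cluster 5, 0.60 in cluster 8, 0.08 in cluster 9 and 0.41 in cluster 10. In shallower cells clusters 8 and 10 had ratios below 0, at -0.10 for 1000 to 2000 UMIs in cluster 8 and -0.19 for 2000 to 5000 UMIs in cluster 10.

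Single members moved together in epithelial cells, with small differences among them. A member was counted as higher or lower where its log2 ratio of CPM reached 0.5 in either direction, with at least 50 UMIs in the class. In all cells 2 of 81 members were higher and 0 lower, where 8.55% of all genes were higher and 21.3% lower. The 2 were Rps27l, and Rpl3l from only 56 and 15 UMIs. With ratios centred on the median gene, 15 members and 14.8% of all genes were higher. In epithelial cells 2 of 80 members were higher and 0 lower, against 6.14% and 17.4% of all genes. Centred on the median gene of epithelial cells (-0.14), 49 of 80 members were higher, where 11.8% of all genes were. All 80 tested members lay above a ratio of 0, where 37.4% of all genes did, with a median of 0.39 against -0.14 over all genes tested. Rps18, a protein of the small subunit head, stood at 2264 CPM in the library labelled STK25 knockout and 1587 CPM in that labelled WT, a log2 ratio of 0.51 (0.49 to 0.53). Rpl18 followed with 2366 CPM against 1663 CPM and a log2 ratio of 0.51. Rps27l, Rpl13 and Rps15a had log2 ratios of 0.49 each. At the low end Rpl10, a late-assembling protein needed before the subunits join, had 21335 UMIs in the library labelled STK25 knockout and 10260 UMIs in that labelled WT, which per CPM gave a log2 ratio of 0.10 (0.07 to 0.14). Rpl13a, Rps15, Rpl7 and Rpl38 had log2 ratios of 0.12, 0.12, 0.18 and 0.21.

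The epithelial clusters differed in how many members moved. In cluster 5, 41 of 80 members were higher by 0.5 or more, where 12.8% of all genes were, and 0 were lower, where 11.1% were. All 80 lay above 0, where 49.9% of all genes did, with a median of 0.50. No member reached 0.5 in either direction in clusters 8, 9 and 10, where 5.20%, 6.31% and 6.53% of all genes were higher and 8.41%, 6.16% and 9.35% lower. In cluster 9, 72 of 80 members lay below 0, where 48.9% of all genes did. The lowest there was Rpsa, a small-subunit protein also described as a laminin receptor precursor, at 705.6 CPM in the library labelled STK25 knockout and 967.9 CPM in that labelled WT, a log2 ratio of -0.46 (-0.54 to -0.37). Rps27l was the highest there, from 370 UMIs and 365 UMIs, with a log2 ratio of 0.29 (0.08 to 0.50).

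In fibroblasts members spread to both sides of 0. None of the 80 reached 0.5 in either direction, where 11.8% of all genes were higher and 8.55% lower, and 52 lay above 0 and 28 below, where 51.3% and 48.7% of all genes did, with a median of 0.05 against 0.01 over all genes. Rplp0, the scaffold of the stalk that recruits elongation factors, stood at 1874 CPM in the library labelled STK25 knockout and 1480 CPM in that labelled WT, a log2 ratio of 0.34 (0.28 to 0.41). Rpl29, Rps2, Rps27l and Rpl15 had log2 ratios of 0.34, 0.33, 0.31 and 0.29. Rpl10 was lowest, with 452.4 CPM against 564.1 CPM and a log2 ratio of -0.32 (-0.44 to -0.20). Rps21, Rpl5, Rps27 and Rpl35a had log2 ratios of -0.20, -0.18, -0.17 and -0.16. Rpl5 is known for binding Mdm2 together with Rpl11 and 5S rRNA when ribosome assembly is disturbed. Rpl10 was thus at the low end in both classes, and Rps27l among the 5 highest in both. The place of Rpl10 is uncertain, because part of its UMIs may be counted under Rpl10-ps3, listed as its pseudogene. Over all cells Rpl10-ps3 had 15099 and 5918 UMIs in the libraries labelled STK25 knockout and WT, beside 33518 and 18398 for Rpl10.

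In immune classes the counts ranged more widely than in epithelial cells and fibroblasts. In macrophages or monocytes 63 of 80 members were higher, where 17.2% of all genes were, and in B cells 50 of 80 were, where 14.9% of all genes were. Rpl29 stood at 821.0 CPM in macrophages or monocytes of the library labelled STK25 knockout and 433.9 CPM in those of the library labelled WT, a log2 ratio of 0.92 (0.79 to 1.05). In T or NK cells 12 of 80 members were higher (18.2% of all genes), in goblet or secretory cells 5 of 80 (14.7%) and in plasma cells 59 of 79 (42.8%). In endothelial cells, dendritic cells and neutrophils no member was higher, where 11.4%, 12.3% and 20.5% of all genes were, and in none of the 10 classes was a member lower by 0.5. The share of all genes lower by 0.5 was 30.5% in macrophages or monocytes, 17.6% in B cells, 22.0% in T or NK cells, 24.5% in goblet or secretory cells and 30.9% in plasma cells, and it was 11.7%, 12.3% and 29.3% in endothelial cells, dendritic cells and neutrophils. Members lay below 0 in 72 of 80 cases in dendritic cells (49.0% of all genes) and in 53 of 80 cases in neutrophils (57.0% of all genes), although with ratios centred on the median gene of neutrophils (-0.12) 53 lay above it.

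**Figure D4:**
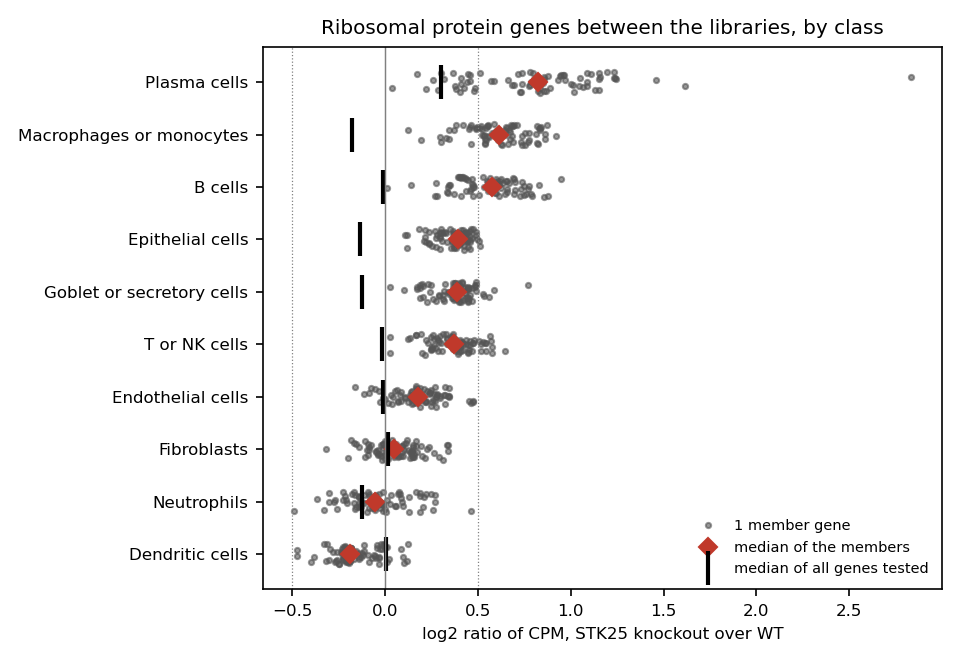
Log2 ratio of CPM, STK25 knockout over WT (x axis), for each member with at least 50 UMIs in the class (grey points), the median of the members (red diamonds) and the median of all genes tested (black bars), in 10 classes. The member median lies right of the bar in 9 classes and left of it in dendritic cells, and dotted lines mark -0.5 and 0.5.

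The make-up of the ribosomal UMIs changed little between classes. Large-subunit and stalk members together held between 49.6% and 54.6% of member UMIs in every cluster and library. Over the 9 classes with at least 50 cells in both libraries, and with the UMIs of both libraries pooled, the highest class share of a member exceeded its lowest by a median of 1.29 times, and for 77 of 80 members by less than 2 times. The 3 members that exceeded this were Rps27l, Rpl22l1 and Rps9. Taken by library, Rps9 ranged by 2.09 times under the knockout label and 1.48 times under the WT label, and Rps27 by 2.12 and 1.80 times.

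Rps27l, the paralog of Rps27 known as a target of p53, held 0.384% of member UMIs in epithelial cells of the library labelled STK25 knockout and 0.357% in those of the library labelled WT. In T or NK cells it held 0.156% and 0.154%, so both libraries placed the 2 classes in the same order with intervals that do not overlap. Within the epithelium it was highest in cluster 5, at 0.452% and 0.524%. Its partner Rps27 had the reverse order, at 0.622% and 0.664% of member UMIs in the epithelium and 1.11% and 1.19% in T or NK cells. In B cells Rps27 held 1.32% and 1.04% of member UMIs. The proteins are near-identical, so reads from similar coding sequence could be assigned to either gene.

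Rps9, a small-subunit protein near the entry of the mRNA channel, held 3.85% of member UMIs in neutrophils of the library labelled STK25 knockout and 2.74% in those of the library labelled WT. The clusters of the class differed more than the libraries did within them. In cluster 11 Rps9 held 4.68% (4.57 to 4.79) and 4.44% (3.74 to 5.22), and in cluster 12 2.43% and 2.40%. In the 18 other clusters of both libraries, cluster 12 among them, its share lay between 1.69% and 2.85%, with macrophages or monocytes next at 2.85% and 2.62%. The high share of Rps9 thus stood in the S100a9-led neutrophils of both libraries, although from 34 cells and 139 Rps9 UMIs in that labelled WT.

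Rpl22l1, the paralog of Rpl22 known for substituting for it when Rpl22 is lost, held 0.517% and 0.546% in goblet or secretory cells, against 0.254% and 0.224% in dendritic cells, in the libraries labelled STK25 knockout and WT. Rpl22 held 0.688% and 0.692% in goblet cells and 0.787% and 0.881% in dendritic cells. When cells were instead set to classes one by one by markers, Rpl22l1 ranged by 1.36 times only, whereas Rps27l ranged by 3.14 and Rps9 by 2.37 times. Rplp0 was highest in epithelial cells, at 2.85% and 2.89%, and Rps2 likewise, at 3.15% and 3.03%. Among other members that varied between classes, Rpsa was highest in dendritic cells, at 1.97% and 2.18%. Rpl37a was lowest in epithelial cells, at 1.21% and 1.19%. Rps21 was highest in endothelial cells, at 0.965% and 1.17%, and lowest in goblet or secretory cells, at 0.645% and 0.691%.

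**Figure D5:**
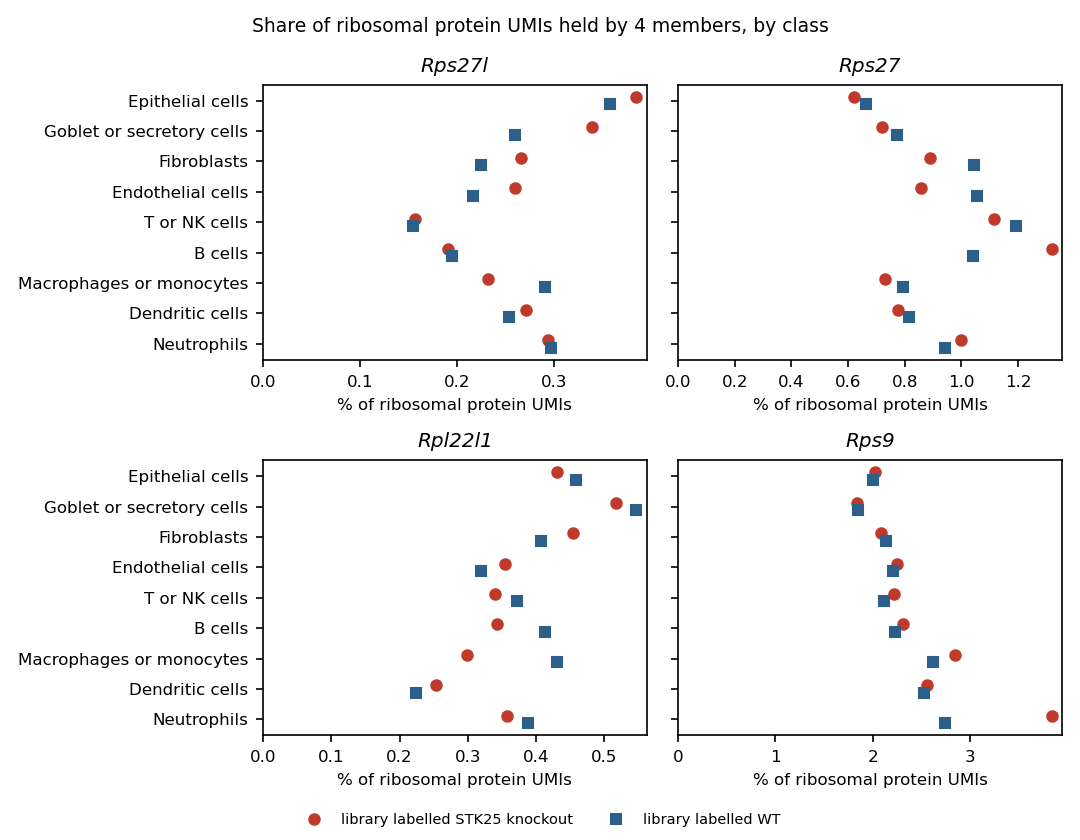
Share of ribosomal protein UMIs held by Rps27l, Rps27, Rpl22l1 and Rps9 (x axes, percent of the UMIs of the 83 members) in 9 classes, with red circles for the library labelled STK25 knockout and blue squares for that labelled WT. Rps27l peaks in epithelial cells while Rps27 is lowest there, and Rps9 peaks in neutrophils at 3.85% and 2.74%.

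Genes near the rule behaved much like the members. Fau, which encodes a ribosomal protein fused to a ubiquitin-like protein, Rack1 and Rpl36al were left out by their names. In epithelial cells Fau stood at 2576 CPM in the library labelled STK25 knockout and 1926 CPM in that labelled WT, which gave a log2 ratio of 0.42 (0.40 to 0.44). Rack1 had a log2 ratio of 0.30 and Rpl36al of 0.45. Rpl9-ps6 and Rpl10-ps3, listed as pseudogenes of members, had 1467 CPM and 229 CPM under the knockout label and 1162 CPM and 155 CPM under the WT label, so part of the UMIs of Rpl9 and Rpl10 may be counted there and the low level and ratio of Rpl10 are uncertain. Over the 18 pairs of class and library, the genes outside the rule most like the summed members in log2 CPM, of 3761 compared, were Rpl9-ps6 (r = 0.97), Naca (0.97), Snrpf (0.97), Eef1a1 (0.97) and Heph (0.96). The least alike was Tmcc1 (-0.95).

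Medians differed between other lists around the ribosome. In epithelial cells the 17 other TOP RNAs, which include mRNAs of elongation factors and the non-coding Gas5 and Snhg8, had a median log2 ratio of 0.23, with 1 higher by 0.5 and 0 lower, where 6.14% and 17.4% of all genes were. Eef1a1, which brings aminoacyl-tRNA to the ribosome, stood at 3409 CPM in the library labelled STK25 knockout and 2857 CPM in that labelled WT. Tpt1, Naca and Eef1b2 had log2 ratios of 0.27, 0.33 and 0.32. The 22 ribosome biogenesis genes had a median of -0.05, with none past 0.5 in either direction and 14 below 0, where 62.6% of all genes lay below 0. Among them Npm1, a nucleolar chaperone, had 0.24, Ncl 0.05, Fbl, the methyltransferase of rRNA, 0.33, and Nop58 -0.18. The 11 regulators had a median of -0.09, with 1 lower by 0.5 (Rptor, at -0.67), where 17.4% of all genes were. Larp1, which binds TOP mRNAs, had 85.8 CPM against 120.7 CPM and a log2 ratio of -0.49, while Cdkn1a had 0.10, Eif4e -0.09 and Trp53 0.11. Genes spanning at least 100 kb took 10.4% of epithelial UMIs under the knockout label and 14.8% under the WT label. What part gene span had in the ratios of the regulators was not tested. The 78 mitochondrial ribosomal protein genes, which serve a separate ribosome, had a median of 0.34, with 73 above 0, where 37.4% of all genes were, and 5 higher by 0.5, where 6.14% were. The median over all genes was -0.14, as given above. In fibroblasts the medians were 0.03 for other TOP RNAs, 0.06 for biogenesis, 0.15 for regulators and 0.22 for mitochondrial ribosomal proteins.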

How the data were processed

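Raw UMI counts for each gene and barcode, as the authors deposited them, were made with Cell Ranger 7.1.0 on mm10 from 10x Genomics 3′ libraries, per the file headers and the labels. The sources used here do not state whether introns were counted. Barcodes numbered 14168 with 66297749 UMIs in the library labelled STK25 knockout, and 12542 with 38737373 UMIs in that labelled WT. A cell was kept if it had 200 genes or more and no more than 25% of its UMIs were mitochondrial. Both libraries were clustered together (scanpy 1.11.5, leidenalg 0.10.2, 2000 variable genes without ribosomal protein and mitochondrial genes, 30 principal components, 20 neighbours, resolution 1, seed 0). Clusters were named from marker sets where 3 or more markers were each found in 10% or more of cells and 5 points above the median cluster, thresholds taken from an earlier analysis of these data. Names of clusters were rebuilt here and may differ from the study's. Doublets stayed in: Scrublet's own threshold marked 0 cells in both libraries, and removing the highest scores (1542 and 1204 cells) was an alternative.

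UMIs were summed by class and library. Shares have exact Clopper-Pearson intervals and log2 ratios, STK25 knockout over WT with no pseudocount, exact conditional binomial intervals (scipy 1.17.1). The script was tested on simulated data. Members, lists and rules were chosen with earlier results of these data known. Named were the 10 most abundant members, the 5 highest and 5 lowest in epithelial cells and in fibroblasts, the 10 that vary most in make-up, paralogs, the 4 most abundant of each list and the 5 genes most like the members, and others named were chosen after their values were seen. Some genes that this rule takes are not reported here. Gene spans came from GENCODE vM21 and start sequences from RefSeq (GRCm38.p6). Alternatives covered the cell filter, clustering, cell-by-cell classes, doublets, totals, averaging over cells and thinning to 1000 UMIs.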

Additional observations from a re-analysis of the deposited data

Results flagged for a closer look

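Dendritic cells, at a log2 ratio of -0.164, and neutrophils, at -0.026, had a lower ribosomal protein share under the knockout label, while the other 8 classes had a higher one. Epithelial cluster 9, at -0.111, was lower while the other epithelial clusters were higher. The direction of each depended on how cells were grouped. Both neutrophil clusters were higher, at 0.149 in cluster 11 and 0.263 in cluster 12. Dendritic cells were at 0.172 with cell-by-cell classes, and the cluster led by Htr4 at resolution 2 was at 0.078. With 1 library per label the differences between dendritic cells, neutrophils or cluster 9 and the rest were not tested.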

How the results depend on the processing

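Limits come first: 1 library stood for each label, classes were rebuilt from markers, and small classes (plasma and dendritic cells) rest on few cells. Values were moved by more than counting error by most settings, since that error is small, and the cause was not tested. For all cells (0.291) the log2 ratio was 0.294 with no cell filter, 0.281 with the stricter filter (500 genes or more and no more than 10% of UMIs mitochondrial), 0.271 without likely doublets, 0.282 without mitochondrial UMIs, 0.276 also without Malat1 and Neat1, 0.126 as a mean and 0.147 as a median over cells, 0.147 after thinning to 1000 UMIs, 0.190 without genes spanning at least 100 kb, -0.039 against short coding genes, 0.212 as an equal mean of clusters and 0.190 without cluster 10. For epithelial cells (0.389) the same settings gave 0.395, 0.344, 0.380, 0.376, 0.370, 0.507, 0.597, 0.518, 0.317, 0.149, 0.171 and 0.302, with 0.367 when ribosomal and mitochondrial genes entered the clustering, 0.374 at resolution 2 and 0.361 with cell-by-cell classes. For fibroblasts (0.066) it was 0.051 with no filter, 0.075 with the stricter filter, 0.081 with those genes in the clustering, 0.006 at resolution 2, 0.052 with cell-by-cell classes, -0.002 without likely doublets, -0.004 without long genes, -0.153 against short coding genes, 0.009 as a mean and 0.105 as a median over cells, and -0.020 after thinning. Macrophages or monocytes came to 0.054 and B cells to 0.146 against short coding genes. Other classes that changed sign against short coding genes were T or NK cells (-0.089), goblet cells (-0.009) and endothelial cells (-0.058). Goblet cells were at -0.188 by the median over cells, dendritic cells at 0.172 with cell-by-cell classes, and neutrophils (-0.026) at -0.671 against short coding genes, -0.188 without long genes, -0.202 with cell-by-cell classes, -0.164 without likely doublets, 0.010 with the stricter filter, 0.073 with ribosomal genes in the clustering and 0.067 after thinning.

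The 2 members higher in all cells became 15 when ratios were centred on the median gene, 1 at a log2 ratio of 1 and 1 without likely doublets. The 2 in epithelial cells became 49 when centred, 8 when scaled by UMIs outside ribosomal and mitochondrial genes, 1 with cell-by-cell classes, and 0 at a log2 ratio of 1, with the stricter filter and with ribosomal genes in the clustering. No member was lower by 0.5 in epithelial cells or in fibroblasts under any setting run, and none was higher in fibroblasts. The settings on long genes, short genes, medians over cells, equal cluster weights and cluster 10 were chosen after seeing the data. No paired analysis was possible because each label has 1 library.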
